A study of Mus musculus with 6 samples.

Results

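The genes described here, called axonemal for short, were taken by symbol to cover the axonemal dyneins and other parts of the flagellar axoneme. They are every gene listed in all 6 tables whose symbol begins with Dnah, Dnai, Dnal, Drc, Cfap, Spag, Rsph or Tekt and holds a number. Only some of the Spag genes among them belong to the axoneme. The rule found 64 genes of the 23253 listed in any library. They comprise 12 dynein heavy chains, 5 dynein intermediate and light chains, 2 genes of the nexin-dynein regulatory complex (Drc), 7 radial spoke genes (Rsph), 5 tektins (Tekt), 23 cilia and flagella associated genes (Cfap) and 10 sperm associated antigens (Spag). Poly(A) RNA was sequenced from whole testes of C57BL/6 mice at 8 months of age, in 3 libraries labelled control and 3 labelled L3mbtl2 cKO, a conditional knockout. The protein L3MBTL2 carries malignant brain tumour repeats and belongs to a Polycomb repressive complex. The labels name neither the Cre strain nor the cell type in which L3mbtl2 was deleted, and they do not say whether each library is another animal. A p-value here is therefore a measure of the spread among these libraries and nothing wider. Abundance is given either as FPKM, fragments scaled for transcript length and library depth, which allows levels of different genes to be compared, or as CPM, counts relative to library size after scaling by the trimmed mean of M-values (TMM), on which groups are compared.

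The axoneme is the microtubule core that gives a sperm flagellum its beat. Outer and inner dynein arms, attached to the microtubule doublets, slide them past each other, while nexin-dynein links, radial spokes and the central apparatus turn sliding into regulated bending, and tektins and other inner proteins stiffen the doublet wall. In the testis the genes for these parts are transcribed in meiotic and post-meiotic germ cells, and RFX-family transcription factors, which bind a palindrome called the X-box, are known regulators of ciliary genes.

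The letters GTTGCC, an arm of the X-box, stood in the promoter of 21 of the 57 axonemal genes that matched a RefSeq promoter table of build GRCm38.p6, or 36.8% of them, against 14.1% of all 27025 genes in that table. Each promoter runs from 250 bases before to 50 bases after a transcription start, and both strands were read. The 57 genes had 65 such promoters, 23 of them with these letters, and 12.5% of all 32851 promoters held them. Stretches upstream of a transcription start are shown for 1 gene of each class where the arm lies wholly upstream, to let it be seen in its surroundings. For Dnaic2, Drc1, Tekt1 and Spag6 the stretch lies within the annotated span of the gene. Capitals mark the arm, read as GTTGCC on the gene's strand or as GGCAAC where it lies on the other strand. Tekt1 holds 2 upstream, of which the one nearer the start is in capitals.
Dnah7c (chr1:46425268-46425344, plus strand): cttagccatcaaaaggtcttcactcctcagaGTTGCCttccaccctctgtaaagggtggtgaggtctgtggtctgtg
Dnaic2 (chr11:114727353-114727418, plus strand): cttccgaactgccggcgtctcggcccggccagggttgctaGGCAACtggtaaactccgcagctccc
Drc1 (chr5:30281342-30281392, plus strand): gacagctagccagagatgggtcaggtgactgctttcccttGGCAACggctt
Tekt1 (chr11:72361883-72361937, minus strand): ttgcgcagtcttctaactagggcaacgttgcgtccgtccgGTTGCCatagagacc
Cfap20 (chr8:95434918-95435003, minus strand): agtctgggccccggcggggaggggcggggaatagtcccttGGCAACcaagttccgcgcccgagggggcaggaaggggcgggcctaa
Spag6 (chr2:18698945-18699021, plus strand): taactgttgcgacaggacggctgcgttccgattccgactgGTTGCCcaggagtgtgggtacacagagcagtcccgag

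The longer string GTTGCCNNG, which contains that arm, was found in 14 of the 57 genes (24.6%, against 5.74% of all genes and 5.0% of all promoters), and a relaxed form of the X-box with both arms in 9 (15.8%, against 2.49% and 2.17%). These 9 genes were Cfap206, Cfap44, Cfap45, Cfap61, Dnah17, Spag16, Spag5, Spag6l and Tekt4. The cyclic AMP response element TGACGTCA, a site of the spermatid regulator CREM, was found in 3 genes, Dnah6, Spag4 and Spag6l (5.26%, against 2.03% of all genes and 1.79% of all promoters). Its core TGACG, which it contains, was in 12 genes (21.1%, against 23.0% and 20.8%), and the GC box GGGCGG in 27 (47.4%, against 38.2% and 35.7%). A match says only that these letters stand in the window, and binding was not measured.

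Libraries labelled control held 17689205 to 18083291 expected counts and those labelled cKO 18604191 to 18822050. L3mbtl2, the targeted gene, had a CPM of 35.0, 38.8 and 36.0 under the label control and 57.0, 60.9 and 57.2 under the label cKO. It was therefore higher under the label of its own knockout, without overlap, at a log2 fold change (cKO minus control, as throughout) of 0.67 (SE 0.10, edgeR's quasi-likelihood test with Benjamini-Hochberg adjustment, adjusted p = 0.166, n = 3 each). In FPKM the difference was smaller, at 14.0, 14.9 and 13.6 against 15.9, 17.1 and 16.0, also without overlap, and the deposited length by which FPKM is scaled averaged 2717 bases under the label control and 3493 under the label cKO. All directions below follow labels that L3mbtl2 goes against, and would turn if the labels were exchanged. The library labelled control replicate 3 stood apart in markers of somatic cells: 12 Leydig cell markers summed to a CPM of 8000 there, 3456 and 1788 in the other libraries labelled control and 1313 to 1387 under the label cKO.

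Most axonemal genes lay higher under the label cKO by similar amounts, and none passed the adjusted test. Of the 63 genes tested, 59 had a positive log2 fold change (49.5% of all genes tested were positive), with a median of 0.33, or 1.26-fold, against a median of -0.0048 over all 18269 genes tested. In 55 of the 63 the value lay from 0.2 to 0.5, where 26.1% of all genes lay. In CPM the 3 libraries labelled cKO lay above all 3 labelled control for 39 of the 63 (18.0% of all genes) and below for 3 (19.8% of all genes). Of those 39, Cfap36, Cfap43, Cfap58, Cfap61, Cfap69, Cfap74, Cfap97, Dnah1, Dnah6, Dnah8, Dnali1, Drc7, Spag16 and Spag5 overlapped between groups in FPKM. edgeR's quasi-likelihood test with Benjamini-Hochberg adjustment called 0 of the 63 higher and 0 lower at 0.05 (0% of all genes in each direction), with 27 higher and 1 lower at an unadjusted p under 0.05 (8.85% and 18.8% of all genes). DESeq2 likewise called 0 in either direction, against 0.405% of all genes higher and 7.67% lower, and limma on log2 FPKM called 0. Rsph4a, with 6 to 15 expected counts per library, was below the filter on low counts and was not tested.

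The count of calls turned on 1 library. Without the library labelled control replicate 2, edgeR's quasi-likelihood test with Benjamini-Hochberg adjustment called 36 axonemal genes higher and 1 lower of 64, where it called 11.0% of all genes higher and 20.7% lower. Without control replicate 3 it called 0 (0.0108% of all genes higher and 0% lower), and the median log2 fold change was 0.19. Control replicate 3 was the lowest of the 6 libraries for 58 of the 63 genes tested, and for 6504 of all 18269 genes tested. Relative to the mean of the libraries labelled cKO, the median axonemal gene lay at -0.29, -0.11 and -0.63 on the log2 scale under the label control, in replicate order, and between -0.02 and 0.01 under the label cKO. Control replicate 2 lay within or above the cKO range for 19 of the 63 genes, control replicate 1 for 12 and control replicate 3 for 5. Over all 18269 genes tested these counts were 13047, 11431 and 10550.

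Markers of spermatocytes and spermatids followed the same order of the control libraries. On the same scale the median of 10 round spermatid markers was -0.36, -0.14 and -0.61 under the label control, and that of 10 elongating spermatid markers -0.35, -0.14 and -0.67. The median log2 fold change was 0.35 for round spermatid markers (10 of 10 positive), 0.37 for elongating spermatid markers (10 of 10) and 0.31 for pachytene spermatocyte markers (9 of 9). The 10 spermatogonium markers did not: they lay at 0.31, 0.32 and 0.37, with a median log2 fold change of -0.37 and 3 of 10 positive. Somatic markers ran the other way: 16 Sertoli cell markers summed to a CPM of 2867, 2033 and 5020 under the label control and 1631 to 1712 under the label cKO, and 11 macrophage markers to 218, 112 and 407 against 104 to 121. Of these lists, 16 of 16 Sertoli, 11 of 12 Leydig and 11 of 11 macrophage markers had a negative log2 fold change, with medians of -0.91, -1.81 and -1.42. The part of these cell mixtures in the axonemal values was not tested, and in whole testes fewer cells of a type and less RNA per cell cannot be told apart. Markers of multiciliated duct epithelium, another source of axonemal RNA, differed among themselves. Of the 10 listed, 5 were tested, Deup1 was in no table, and Mcidas and Scgb1a1 had a mean of 0.022 FPKM each. The list summed to a CPM of 72.0 to 89.2 under the label control and 87.7 to 97.6 under the label cKO. Most of that came from Fam183b (36.7 to 51.7 CPM) and Dynlrb2 (16.7 to 29.7 CPM). Dynlrb2 is also in the list of dynein light chains below, so the sum does not measure duct epithelium alone.

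**Figure D1:**
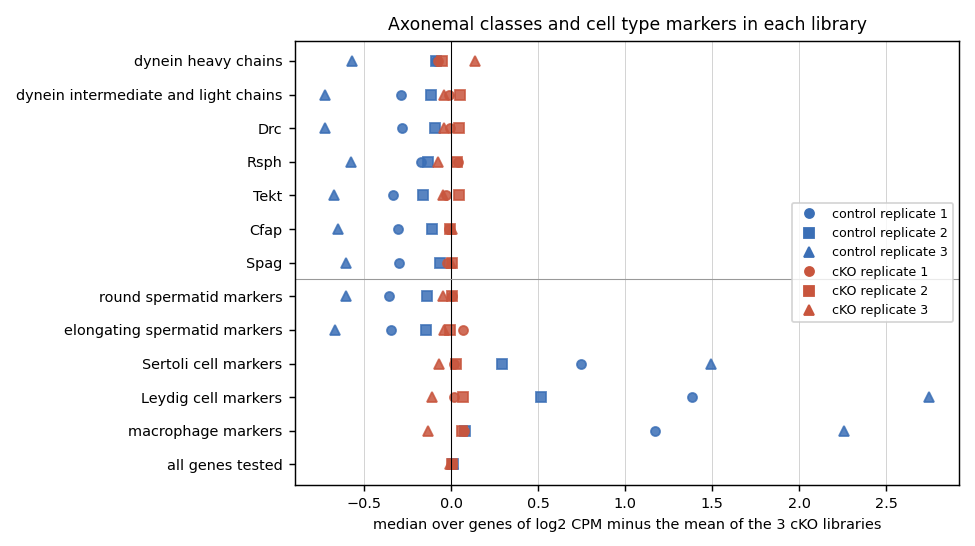
Median of each axonemal class, of cell type markers and of all genes tested in each of the 6 libraries, as log2 CPM minus the gene's mean over the 3 libraries labelled cKO (x axis); blue points are libraries labelled control and red points those labelled cKO, with 1 symbol per replicate number. The library labelled control replicate 3 is the lowest for every axonemal class and the highest for Leydig, Sertoli and macrophage markers, while the 6 medians of all genes tested lie between -0.01 and 0.01.

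Levels of the axonemal genes spread over more than 3 orders of magnitude in these testes. Of the 64 genes, 58 had a mean of at least 10 FPKM, against 38.3% of all genes tested. The radial spoke gene Rsph1 was the most abundant at 539 FPKM, followed by Cfap206 at 273, Cfap36 at 207 and the tektins Tekt1 and Tekt2 at 194 and 188 FPKM. The least abundant were Dnah9, Dnah5, Rsph4a and Dnah11, all below 1 FPKM. Median levels by class were 17.9 FPKM for dynein heavy chains, 35.0 for intermediate and light chains, 38.5 for Drc, 44.6 for Spag, 46.6 for Cfap, 97.2 for Rsph and 161 for tektins. The genes lay on 17 chromosomes, 11 of the 64 on chromosome 11 (17.2%, against 7.90% of all genes tested with a known position).

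**Figure D2:**
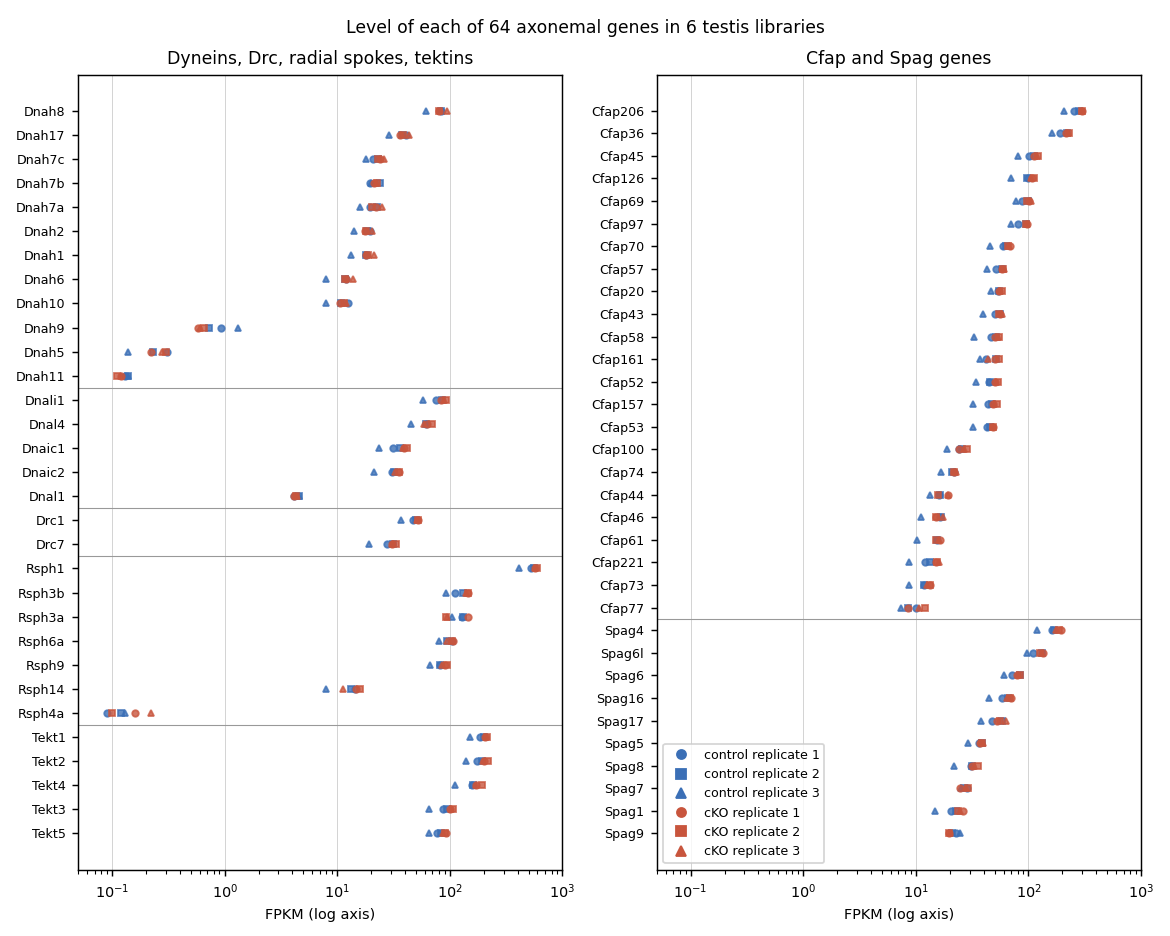
FPKM of each of the 64 genes (x axis, log scale) in each of the 6 libraries, grouped by class and ordered by mean within a class; blue points are libraries labelled control and red points those labelled cKO. Dnah9, Dnah5, Dnah11 and Rsph4a lie below or near 1 FPKM, at least 20-fold below the related Dnah17, Dnah8 and Rsph6a, and control replicate 3 is the leftmost point of most genes.

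Among the outer arm heavy chains, the motors that supply most of the beating force, the testes held those of sperm and little of those of other cilia. Dnah8 (chromosome 17, 30626935 to 30875762 in mm10), the outer arm heavy chain of the sperm tail, stood at 83.3, 82.8 and 62.0 FPKM under the label control and 79.8, 80.2 and 94.7 under the label cKO. Its partner Dnah17 (chromosome 11, 118021723 to 118130719) stood at 41.1, 37.4 and 28.9 against 35.8, 38.3 and 43.6 FPKM. The ratio of Dnah8 to Dnah17 varied little over the 6 libraries, from 2.03 to 2.23. Dnah5, the outer arm chain of airway and other cilia that corresponds to Dnah8, had 0.31, 0.23 and 0.14 against 0.22, 0.30 and 0.28 FPKM, and Dnah8 exceeded it 268-fold to 443-fold in single libraries. Dnah11, which in cilia takes the place of Dnah17 near the base, had 0.11 to 0.14 FPKM in every library, 207-fold to 363-fold below Dnah17. With so few reads their log2 fold changes were imprecise, at 0.36 (SE 0.33) for Dnah5 and -0.16 (SE 0.25) for Dnah11.

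In TMM-scaled CPM, Dnah8 had 1174, 1212 and 864 under the label control and 1222, 1221 and 1437 under the label cKO. The groups did not overlap on this scale but overlapped in FPKM, and the control replicate 2 value lay within 1% of the lowest cKO library. The log2 fold change was 0.26 (SE 0.15) with an adjusted p of 0.284 by edgeR's quasi-likelihood test with Benjamini-Hochberg adjustment. Dnah17, with a CPM of 613, 579 and 427 against 580, 616 and 701, overlapped between groups, at a log2 fold change of 0.23 (SE 0.16). Only control replicate 3 lay clearly below the cKO libraries for it.

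Dnah9, an outer arm heavy chain of the distal part of cilia, was the axonemal gene with the lowest log2 fold change. It lies on chromosome 11, 65831324 to 66168581 in mm10, and had 227, 182 and 319 expected counts under the label control and 149, 167 and 155 under the label cKO. In CPM these were 12.1, 10.01 and 17.1 against 8.24, 9.20 and 8.60, without overlap, and control replicate 3 was the highest library, the reverse of its place for most axonemal genes. The log2 fold change was -0.59 (SE 0.22), with an unadjusted p of 0.030 and an adjusted p of 0.168 by edgeR's quasi-likelihood test with Benjamini-Hochberg adjustment, which ran from 0.0258 without control replicate 2 to 0.378 over the alternatives. Without control replicate 3 the log2 fold change was -0.35. The order of the libraries labelled control for Dnah9, with replicate 3 above 1 above 2, was that of the Leydig and Sertoli marker sums, and the part of somatic cells in it was not tested. Dnah17 exceeded Dnah9 22.1-fold in control replicate 3 and 71.4-fold in cKO replicate 3, measured in FPKM.

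The inner arm heavy chains, which shape the bend, had log2 fold changes of 0.15 to 0.33, positive in 7 of 7. In FPKM the 3 closely related genes Dnah7c, Dnah7b and Dnah7a had means of 22.5, 21.5 and 21.0, Dnah2 and Dnah1 of 18.0 and 17.9, and Dnah6 and Dnah10 of 11.6 and 10.8. Dnah1, whose loss in mice and humans disrupts the sperm flagellum, had a CPM of 224, 230 and 160 under the label control and 240, 251 and 282 under the label cKO, without overlap (log2 fold change 0.33, SE 0.15). Dnah6 did not overlap either, at 148, 149 and 96.9 against 158, 155 and 184 (0.33, SE 0.17). In FPKM both Dnah1 and Dnah6 overlapped between groups. For Dnah2, with 300, 278 and 223 against 279, 289 and 317, control replicate 1 lay within the cKO range and the log2 fold change was 0.15 (SE 0.13). Control replicate 1 also lay within the cKO range for Dnah10, at 166, 150 and 106 against 154, 166 and 173 (0.22, SE 0.16). No inner arm heavy chain had an unadjusted p under 0.05.

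Dnah7a, Dnah7b and Dnah7c all lie on chromosome 1, Dnah7b and Dnah7c side by side with 51876 bases between them and Dnah7a apart, at 53396995 to 53707301. They are near-identical copies among which the counting can split reads, so their single values are uncertain. Summed, they had a CPM of 456, 527 and 371 under the label control and 526, 505 and 608 under the label cKO, a log2 difference of 0.28. Control replicate 2 lay within the cKO range.

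In CPM, 9 of the 12 heavy chains were highest in cKO replicate 3, including 7 of 7 inner arm chains. On that scale 10 of the other 51 axonemal genes and 15% of all genes tested were highest there. In FPKM the inner arm chains Dnah10 and Dnah7b were highest in control replicate 1 and control replicate 2. Heavy chain transcripts are long, and among all 329 genes of at least 10000 bases 34.0% were highest in cKO replicate 3 too. For genes of that length the median over all genes was 0.10 in both control replicate 1 and cKO replicate 3, relative to the cKO mean, and for the 9 heavy chains among them it was 0.02 and 0.11. The 35 axonemal genes under 3000 bases lay at -0.30, -0.13 and -0.65 under the label control, and 24 of them were highest in cKO replicate 2. The median log2 fold change was 0.23 for the 9 long heavy chains and 0.34 for the 35 short genes, and the part of transcript length in that difference was not tested.

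**Figure D3:**
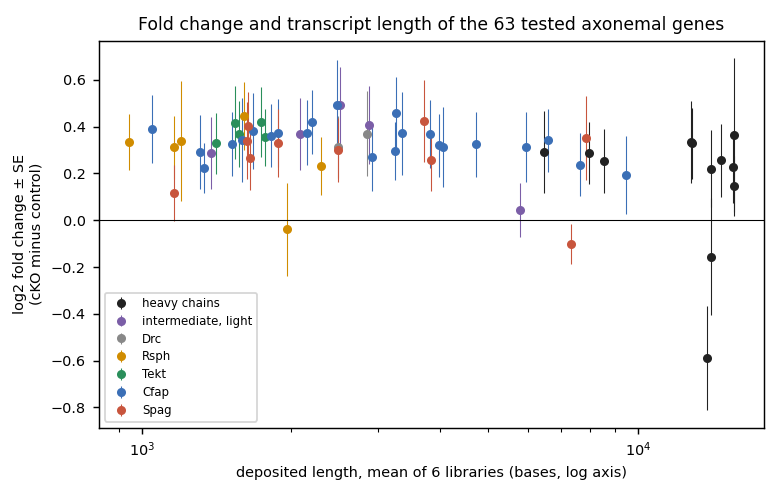
Log2 fold change (cKO minus control, y axis, bars are ± SE) of the 63 tested axonemal genes against the deposited transcript length (x axis, log scale), coloured by class. Genes under 10000 bases mostly lie between 0.2 and 0.5, and the heavy chains of at least 10000 bases run from -0.59 for Dnah9 to 0.36 for Dnah5.

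Intermediate and light chains bind the heavy chains into arms. Dnaic1, an outer arm intermediate chain, had a CPM of 73.2, 88.1 and 55.2 under the label control and 101, 105 and 98.5 under the label cKO. All 3 cKO libraries lay above all 3 controls, with a log2 fold change of 0.49 (SE 0.16) and an adjusted p of 0.166 by edgeR's quasi-likelihood test with Benjamini-Hochberg adjustment, or 0.0162 without control replicate 2. The second outer arm intermediate chain, Dnaic2, had 82.8, 89.3 and 57.1 against 105, 103 and 95.6, also without overlap (0.41, SE 0.17).

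Dnali1, a light intermediate chain of inner arms and the most abundant of this class at 80.5 FPKM, had a CPM of 148, 172 and 113 against 179, 194 and 186 (log2 fold change 0.37, SE 0.15). Dnal4, a light chain at 59.9 FPKM, had 77.9, 81.6 and 56.5 against 87.4, 95.7 and 80.4 and overlapped between groups (0.29, SE 0.15). Dnal1, the outer arm light chain that binds a motor domain, had 22.9, 26.4 and 25.1 against 24.8, 25.5 and 26.4. Its log2 fold change of 0.04 (SE 0.12) turned to -0.05 with library totals alone, to -0.04 and -0.05 by limma on log2 FPKM and to -0.01 without control replicate 1. Of the 5 genes, 3 were higher at an unadjusted p under 0.05 (8.85% of all genes) and 3 were higher without overlap in CPM (18.0% of all genes). In FPKM Dnali1 overlapped.

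Drc1 and Drc7 are of the nexin-dynein regulatory complex that links neighbouring doublets. Both had a higher CPM in every library labelled cKO than in any labelled control, as 18.0% of all genes did. Drc1, its scaffold, had a CPM of 109, 122 and 85.8 against 132, 132 and 129 (log2 fold change 0.31, SE 0.13). Drc7 had 74.5, 86.8 and 51.3 against 89.8, 97.1 and 87.9 (0.37, SE 0.18), and its groups overlapped in FPKM.

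Radial spokes carry signals from the central apparatus to the dynein arms, and their genes held the widest ratio of the sperm and ciliary forms compared here. Rsph6a, the spoke head protein of sperm, had a mean of 97.2 FPKM, while Rsph4a, its counterpart in other cilia, had 0.09 to 0.22 FPKM. In single libraries Rsph6a exceeded it 433-fold to 1156-fold, a range that rests on the few Rsph4a counts. Rsph1, a spoke head protein shared by both (chromosome 17, 31255019 to 31277296), had a CPM of 557, 617 and 441 under the label control and 660, 688 and 657 under the label cKO, without overlap (log2 fold change 0.31, SE 0.14). Rsph9, also of the spoke head, had 69.2, 72.4 and 56.6 against 83.5, 87.0 and 79.4, without overlap and with the smallest standard error of the spoke genes (0.33, SE 0.12). Rsph6a overlapped between groups, at 224, 213 and 169 against 247, 241 and 224 (0.23, SE 0.12). Rsph14 at 12.9 FPKM also overlapped, at 15.6, 15.2 and 8.62 against 17.6, 18.9 and 13.3 (0.34, SE 0.26).

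Rsph3a and Rsph3b, copies of the spoke stalk gene on chromosome 17, went apart. Rsph3b had a CPM of 166, 205 and 138 under the label control and 234, 236 and 225 under the label cKO, without overlap (log2 fold change 0.45, SE 0.14, adjusted p = 0.166 by edgeR's quasi-likelihood test with Benjamini-Hochberg adjustment). Rsph3a had 235, 252 and 190 against 289, 182 and 188, so that cKO replicate 1 was the highest library and cKO replicate 2 the lowest. Its log2 fold change of -0.04 (SE 0.20) turned to 0.06 without control replicate 2, to 0.08 without cKO replicate 2 and to 0.07 without cKO replicate 3. As reads of near-identical copies may be split unevenly, both values are uncertain. The sum of the copies was 401, 457 and 329 against 524, 418 and 412 CPM, overlapping between groups, with a log2 difference of 0.19.

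Tektins form filaments along the doublet wall. In CPM all 5 lay higher in each library labelled cKO than in any labelled control, as 18.0% of all genes did. Tekt3 (chromosome 11, 63061659 to 63094960) had a CPM of 140, 160 and 106 under the label control and 176, 186 and 180 under the label cKO. Its log2 fold change was 0.42 (SE 0.15), with an adjusted p of 0.166 by edgeR's quasi-likelihood test with Benjamini-Hochberg adjustment. Tekt4 had 224, 238 and 159 against 266, 296 and 265 (0.42, SE 0.16). Tekt2 had 257, 293 and 202 against 317, 342 and 311 (0.37, SE 0.14). The range within the class was narrow, with Tekt5 at 0.36 (SE 0.12) and Tekt1 at 0.33 (SE 0.13). Each tektin had an unadjusted p under 0.05 (8.85% of all genes were higher at that p), and each was called higher without control replicate 2 (11.0% of all genes).

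**Figure D4:**
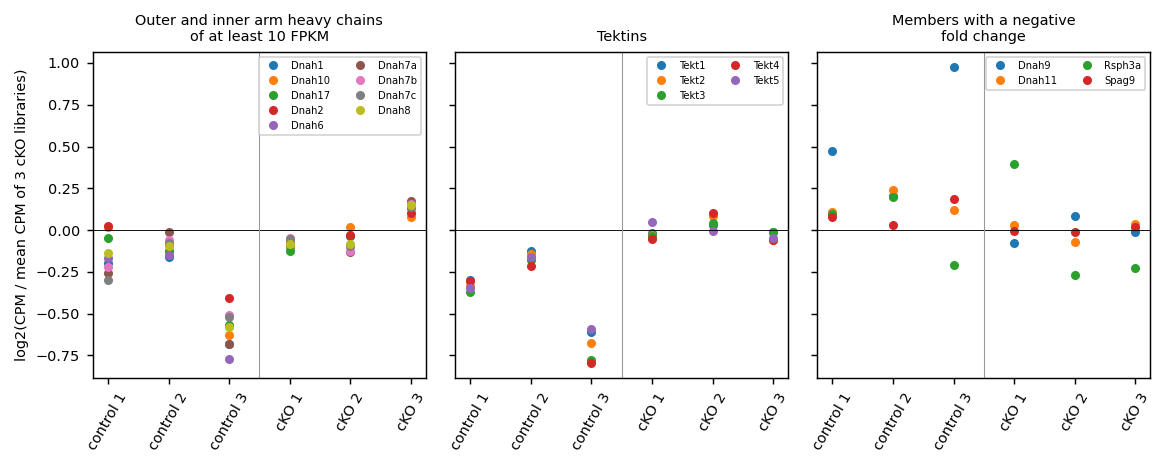
Log2 of CPM over the mean CPM of the 3 libraries labelled cKO (y axis) in each library (x axis) for the 9 heavy chains of at least 10 FPKM, the 5 tektins and the 4 genes with a negative log2 fold change. Heavy chains and tektins are lowest in control replicate 3, heavy chains are highest in cKO replicate 3, and Dnah9 is highest in control replicate 3.

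The Cfap genes, which encode parts of nearly every axonemal substructure, were the largest class. All 23 had a positive log2 fold change, from 0.19 for Cfap46 to 0.49 for Cfap221, with a median of 0.34. In 18 the CPM of the 3 libraries labelled cKO lay above all controls (18.0% of all genes), though some of these 18 overlapped in FPKM. An unadjusted p under 0.05 was found for 14 (8.85% of all genes were higher at that p). For 23 of 23 the lowest library was control replicate 3, as it was for 6504 of all 18269 genes tested. Without that library the median of the class was 0.21.

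Cfap206, a protein at the base of a radial spoke and the most abundant Cfap gene, had a CPM of 505, 593 and 411 under the label control and 652, 650 and 654 under the label cKO. The cKO libraries spread by an SD of 2.12 around a mean of 652, against an SD of 90.7 around 503 in the controls, with a log2 fold change of 0.37 (SE 0.14). Cfap36, the second by level, had 266, 326 and 226 against 333, 351 and 342 (0.33, SE 0.14), and Cfap45, an inner protein of the doublets, had 170, 197 and 137 against 208, 223 and 216 (0.36, SE 0.14).

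Cfap52, another doublet inner protein, had a CPM of 91.2, 98.0 and 69.5 against 113, 120 and 114. Its unadjusted p of 0.016 was the smallest of all axonemal genes (log2 fold change 0.42, SE 0.14, adjusted p = 0.166 by edgeR's quasi-likelihood test with Benjamini-Hochberg adjustment). Cfap73, a counterpart of an algal modifier of inner arms, had 35.6, 36.6 and 25.6 against 46.0, 44.9 and 43.5 (0.46, SE 0.15). Cfap221, of the central apparatus, had 28.9, 33.4 and 19.6 against 37.5, 38.3 and 39.5, without overlap (0.49, SE 0.19). Cfap43, Cfap44 and Cfap69, named after their values were seen and known for sperm tail defects on their loss, were at 0.31 (SE 0.15), 0.34 (SE 0.13) and 0.30 (SE 0.13).

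**Figure D5:**
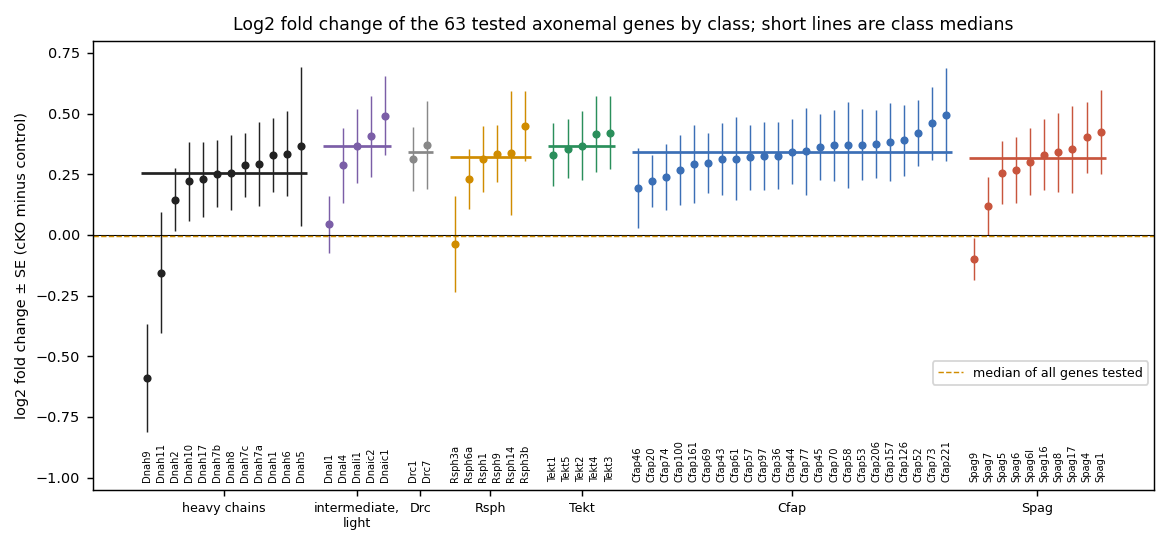
Log2 fold change (cKO minus control, y axis, bars are ± SE) of the 63 tested axonemal genes, ordered within each class; short lines mark class medians and the dashed line the median of all genes tested. Class medians run from 0.25 for heavy chains to 0.37 for tektins and for intermediate and light chains, and Dnah9, Dnah11, Rsph3a and Spag9 lie below 0.

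The Spag genes share a naming history and not a structure, and only some belong to the axoneme. Those of the central apparatus had log2 fold changes near the rest, at 0.27 (SE 0.14) for Spag6, 0.30 (SE 0.14) for Spag6l, 0.33 (SE 0.15) for Spag16 and 0.35 (SE 0.18) for Spag17. Spag6 and Spag6l are close copies, and their summed CPM was 366, 456 and 318 under the label control and 470, 460 and 466 under the label cKO. Spag1, an assembly factor of dynein arms, had 72.2, 84.0 and 51.4 against 98.1, 88.6 and 92.0 (0.42, SE 0.17), and Spag4, a SUN-domain protein of the spermatid nuclear envelope at 167 FPKM, had 245, 263 and 181 against 315, 308 and 286 (0.40, SE 0.15). Both were without overlap and had an unadjusted p under 0.05.

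The Spag genes with the lowest log2 fold changes were Spag9 and Spag7. Spag9, a scaffold of JNK signalling and motor transport, had a CPM of 158, 153 and 170 under the label control and 149, 148 and 152 under the label cKO. The groups did not overlap and control replicate 3 was the highest library, as for Dnah9, at a log2 fold change of -0.10 (SE 0.09). Spag7 had 30.1, 29.7 and 26.4 against 28.6, 33.1 and 31.8, overlapping, at 0.12 (SE 0.12). Spag5, a protein of the mitotic spindle, was at 0.26 (SE 0.13).

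Genes listed under other names for the same structures gave like counts. Of 19 dynein docking and assembly factors tested, 18 had a positive log2 fold change, with a median of 0.31, and edgeR's quasi-likelihood test with Benjamini-Hochberg adjustment called 0, with 7 higher at an unadjusted p under 0.05 (8.85% of all genes) and 0 by DESeq2 (0.405% of all genes higher and 7.67% lower). The 2 most abundant, the assembly factors Dnaaf1 and Zmynd10, had log2 fold changes of 0.33 (SE 0.14) and 0.38 (SE 0.16). For 10 further genes listed as nexin-dynein the median was 0.32 (10 positive, 3 unadjusted), with Ccdc65 at 0.35 (SE 0.15). Nme5, counted in that list though its place in the complex was not checked, was at 0.40 (SE 0.17). For 12 genes listed for the central apparatus the median was 0.31 (12 positive, 6 unadjusted), with Mlf1 at 0.35 (SE 0.14) and Ak8 at 0.31 (SE 0.14). Wdr78 is in this list and also in that of dynein light and intermediate chains below, so those lists are not separate. Without control replicate 3 the 3 medians were 0.17, 0.18 and 0.19.

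Intraflagellar transport carries axonemal parts to the growing tip, and 19 of 21 of its genes were positive, with a median of 0.28. At an unadjusted p under 0.05 by edgeR's quasi-likelihood test 8 of the 21 were higher (8.85% of all genes). The most abundant transport genes were Kif17 at 0.38 (SE 0.14) and Ift140 at 0.34 (SE 0.13). Dyneins that walk in the cytoplasm or carry this transport back lay nearer to all genes, at a median of 0.10 over 7 genes. Of these 7, 5 were positive, and 1 was lower at an unadjusted p under 0.05 (18.8% of all genes). Dync1h1, the heavy chain of cytoplasmic dynein, had a CPM of 896, 829 and 731 under the label control and 846, 837 and 957 under the label cKO, overlapping between groups (log2 fold change 0.10, SE 0.12). Dync1i2 had 0.17 (SE 0.10). Without control replicate 3 the medians were 0.18 for intraflagellar transport and 0.05 for these dyneins.

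Dynein light and intermediate chains under other names, many shared between axonemal and cytoplasmic dyneins, held the widest spread. Of 13 tested, 10 were positive, with a median of 0.30. At an unadjusted p under 0.05 by edgeR's quasi-likelihood test, 5 were higher and 2 lower (8.85% and 18.8% of all genes). Dynlt1b, a light chain at 862 FPKM, had a CPM of 459, 573 and 407 under the label control and 586, 968 and 872 under the label cKO. It had a log2 fold change of 0.75 (SE 0.21), with an adjusted p of 0.166 by edgeR's quasi-likelihood test with Benjamini-Hochberg adjustment and of 0.0173 by DESeq2. Its family holds near-identical copies, so the value is uncertain. Dynlrb1, named after its values were seen, was the only gene of this list that DESeq2 called lower (adjusted p = 0.0175). Its CPM was 11.8, 9.52 and 20.6 against 6.47, 6.22 and 6.66. Of all genes DESeq2 called 0.405% higher and 7.67% lower. Dynll2 had a log2 fold change of -0.04 (SE 0.10), which turned to 0.03 without control replicate 3, where the median of the list was 0.19.

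Transcription factors of motile cilia and spermatids had log2 fold changes of similar size. Tcfl5 at 141 FPKM and the X-box factor Rfx2 at 136 FPKM were the most abundant of 11 tested. Of these 11, 10 were positive, with a median of 0.28. At an unadjusted p under 0.05 by edgeR's quasi-likelihood test 1 was higher, near the share of all genes (8.85%). Rfx2 had a CPM of 473, 433 and 308 under the label control and 527, 490 and 461 under the label cKO, overlapping between groups (log2 fold change 0.28, SE 0.16). Tcfl5 had 305, 341 and 244 against 369, 353 and 342, without overlap (0.26, SE 0.13). Foxj1, the main regulator of motile ciliary genes and named after its values were seen, had 89.2, 82.6 and 51.2 against 94.0, 110 and 93.4 (0.41, SE 0.20). Without control replicate 3 the median of these factors was 0.18.

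Between classes, median log2 fold changes ran from 0.25 for dynein heavy chains through 0.32 for Spag and Rsph, 0.34 for Drc and Cfap to 0.37 for intermediate and light chains and for tektins. The same order held in part without control replicate 3, from 0.11 for heavy chains and 0.18 for Spag and Drc to 0.22 for intermediate and light chains and 0.25 for tektins. Differences between classes were not tested, since genes are not replicates. The spread of the class medians over the libraries labelled control, with an SD of 0.25 to 0.32, was of the size of the class medians themselves, and larger than the 0.0084 to 0.12 over those labelled cKO.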

How the data were processed

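Messenger RNA of 6 testis libraries was analysed from the authors' deposited gene tables, which give expected counts and FPKM per gene, per the file headers. The submitters' processing notes name bcl2fastq 2.16, HISAT2 2.0.4, Bowtie2 2.2.5, RSEM, DESeq2 and build mm10, with no role or order. Deposited expected counts are not normalized, and deposited FPKM is scaled for length and depth. Where a table lacked a gene, its value was taken as 0. Groups followed sample titles and genotype labels, whereas the table names give the other genotype. No source used here gives the strandedness, which leaves genes with an overlapping antisense partner uncertain.

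Expected counts were rounded, and edgeR 4.0.16 under R 4.3.3 tested them (filterByExpr with minimum count 10 and total 15, TMM scaling, quasi-likelihood F-test, Benjamini-Hochberg adjustment over 18269 genes at 0.05), after a test on simulated data. SE is the size of the log2 fold change divided by the root of F. Single values were also put to an exact permutation test, whose smallest two-sided p for 3 against 3 is 0.1. The common biological coefficient of variation was 22.8%. Alternatives were other scalings, filters, DESeq2 1.42.0, limma 3.58.1 on log2(FPKM + 1) or log2(FPKM + 0.1), a replicate block, and leaving out each library.

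The axonemal genes, gene lists and tests were chosen with earlier results of these data known. Named genes were L3mbtl2, all heavy chains, Drc, Rsph and tektin genes, in the other classes the 3 most abundant and the 2 with the smallest p, the 5 highest and 5 lowest fold changes among genes of at least 1 FPKM, and the 2 most abundant of each pathway list. Cfap46, Spag5, Spag16 and Spag17 were given fold changes outside this rule, as were the genes marked as named after their values were seen. Epididymis markers (7 of 11 listed, 3 tested) had a median log2 fold change of 0.54, and spermatogonium markers (10 tested) of -0.37. Another 3 spellings of the promoter strings were also searched and are not reported. Promoters were taken from a RefSeq table of GRCm38.p6, which shares its primary assembly with mm10. Rsph4a, Cfap53, Cfap97, Cfap73, Rsph1, Cfap157 and Spag1 had no entry there.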

Additional observations from a re-analysis of the deposited data

How the results depend on the processing

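Across 14 alternatives the median log2 fold change of the axonemal genes and of each class stayed positive. The count of axonemal calls was 0 in each direction except without control replicate 2, so leaving out 1 library gave 0 to 36 higher and 0 to 1 lower. Over all genes, DESeq2 called 72 higher and 1364 lower, limma 1 higher with either pseudocount, and leaving out 1 library gave 0 to 2049 higher and 0 to 3851 lower. Without control replicate 3, cKO replicate 2 or cKO replicate 3 edgeR called 2, 3 and 1 genes higher. L3mbtl2 passed with DESeq2 (log2 fold change 0.69) and without control replicate 2, where it was 0.73, the highest of the leave-one-out values, which began at 0.64. With library totals alone the median of all genes moved to -0.10 and that of the axonemal genes to 0.23. Directions turned for Rsph3a (0.063 without control replicate 2, 0.083 without cKO replicate 2, 0.066 without cKO replicate 3, leave-one-out range -0.28 to 0.083), for Dnal1 (-0.055 with library totals, -0.045 and -0.054 by limma, -0.011 without control replicate 1, leave-one-out range up to 0.11) and for Dynll2 (0.031 without control replicate 3, leave-one-out range from -0.077). The cause was not tested. Replicate numbers did not pair the libraries, with correlations of same-numbered deviations of 0.043, -0.007 and -0.039. With the replicate block edgeR called 0 axonemal genes, and their median was 0.34. Counts of few reads, as for Rsph4a and Dnah11, limit what can be said of ciliary forms.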
